A study of Mus musculus with 48 samples.

Results

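Pericytes and smooth muscle cells, together the mural cells of blood vessels, were described in the hypothalamus of E18.5 mouse embryos. A cell was chosen by its own counts: it was taken when at least 3 of 7 mural genes (*Rgs5*, *Kcnj8*, *Pdgfrb*, *Acta2*, *Notch3*, *Abcc9* and *Higd1b*) and fewer than 3 of 6 endothelial genes (*Cldn5*, *Pecam1*, *Flt1*, *Ly6c1*, *Cdh5* and *Ly6a*) had at least 1 UMI, the tag that marks 1 captured transcript molecule. This rule chose 110 of 14121 cells, or 0.779%, of which 58 were from control and 52 from *Eed-cKO* embryos. The 13 rule genes are therefore given as a description, and no test of them is counted as a result.

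The cells were captured on the ddSEQ droplet platform in 48 libraries from 6 control and 9 *Eed-cKO* embryos of both sexes. The hypothalamus was cut into pieces and dissociated with papain. Controls carried *Eed* fl/fl, and *Eed-cKO* embryos carried *Eed* fl/fl; Sox1-Cre/+, all on a B6:129S1 mixed background. *Eed* encodes a subunit of Polycomb repressive complex 2 (PRC2), which places a silencing mark on histone H3. Sox1-Cre acts in the neural lineage, so mural cells were not its intended target. The libraries of an embryo were summed and the embryo was the replicate, so that p-values measure the spread between embryos. No litter, as read from the library names, held both genotypes, so litter and genotype cannot be told apart. Embryos are numbered within each genotype as names only.

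The libraries held 576432 to 4513505 UMIs. One library of control embryo 5 stood apart with 1207 cells against 163 to 465 in the others, and it held 11 of the mural cells. Barcodes found in more than 1 library numbered 101 of 14019, and 0 mural cells carried one of them. A mural cell held a median of 1964 UMIs (603 to 18705), against 5016 in 249 endothelial cells chosen by the mirror-image rule and 4557 in 13263 other cells that passed no vascular, leptomeningeal or microglial rule. The sums over mural cells were 137008 UMIs in control and 240458 in *Eed-cKO*, which limits every comparison of weakly expressed genes.

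Pericytes sit on capillaries within the basement membrane they share with the endothelium, and smooth muscle cells wrap arterioles and contract. Endothelial PDGF-B recruits mural cells through the receptor encoded by *Pdgfrb*, and Notch signalling through the mural receptor encoded by *Notch3* sustains them. In the forebrain, mural cells arise largely from the neural crest. The products of *Kcnj8* and *Abcc9* form an ATP-sensitive potassium channel typical of brain pericytes, and that of *Rgs5* dampens G protein signalling.

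Promoters are shown for some of the genes whose window held a motif named below. They are the contractile genes *Acta2*, which encodes smooth muscle actin, and *Myl9*, a myosin light chain. The others are *Abcc9* and *Vtn*, which encodes the matrix protein vitronectin, both found in most members. Each promoter is the 250 bases before the RefSeq start in GRCm38.p6, on the strand of the gene. The windows are chr19:34255374-34255623 (minus strand) for *Acta2*, chr2:156775214-156775463 (plus strand) for *Myl9*, chr6:142702275-142702524 (minus strand) for *Abcc9* and chr11:78498870-78499119 (plus strand) for *Vtn*. Capitals mark TGGGAA on either strand, the core bound by the Notch effector RBPJ, or in *Myl9* a CArG box, the motif of serum response factor. A CArG box was taken as CCWWWWWWGG, with W for A or T. Near matches, such as ccctatatgg and ccttgtttgg in *Acta2*, were not counted. TGGGAA occurred in 21.6% and the CArG box in 1.47% of 32851 RefSeq promoters of this length, and a match is a description of letters, not a site. TGGGAA lay 27 bases before the start of *Acta2*, 221 before that of *Abcc9* and 236 before that of *Vtn*, and the CArG box 161 before that of *Myl9*. Of 13 genes looked up, 10 had an entry, and neither motif was in the windows of *Rgs5*, *Kcnj8*, *Notch3*, *Foxc1* or *Col4a1*. Of the windows of *Igf2*, which has several starts, some held a motif and some held neither.
Acta2: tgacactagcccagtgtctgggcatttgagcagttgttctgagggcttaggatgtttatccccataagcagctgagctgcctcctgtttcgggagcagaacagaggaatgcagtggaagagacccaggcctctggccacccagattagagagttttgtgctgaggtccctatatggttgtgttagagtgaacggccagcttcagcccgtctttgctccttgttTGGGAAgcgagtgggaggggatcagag
Myl9: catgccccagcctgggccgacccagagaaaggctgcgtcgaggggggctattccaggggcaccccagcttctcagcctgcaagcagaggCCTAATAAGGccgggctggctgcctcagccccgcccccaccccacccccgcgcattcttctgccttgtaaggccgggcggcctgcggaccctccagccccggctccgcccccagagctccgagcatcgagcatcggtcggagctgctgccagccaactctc
Abcc9: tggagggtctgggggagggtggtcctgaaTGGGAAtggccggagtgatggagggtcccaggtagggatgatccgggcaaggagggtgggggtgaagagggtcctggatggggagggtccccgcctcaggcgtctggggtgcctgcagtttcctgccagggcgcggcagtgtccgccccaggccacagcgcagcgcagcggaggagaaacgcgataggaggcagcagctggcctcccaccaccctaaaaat
Vtn: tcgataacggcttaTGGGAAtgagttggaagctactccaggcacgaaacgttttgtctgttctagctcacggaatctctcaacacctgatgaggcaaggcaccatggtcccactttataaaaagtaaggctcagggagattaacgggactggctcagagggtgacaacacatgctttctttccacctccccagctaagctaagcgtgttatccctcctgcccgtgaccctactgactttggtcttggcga

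The label was checked against genes that the rule did not use. *Vtn* was detected in 97 of 110 members (2339 CPM in their sum, where CPM is UMIs per 1000000 UMIs), in 6 of 249 endothelial and in 134 of 13263 other cells. It was also found in 292 of 398 cells chosen by leptomeningeal fibroblast genes (1531 CPM), so *Vtn* alone did not mark mural cells. *Cspg4*, which encodes the pericyte proteoglycan NG2, was detected in 78 members. Each of the 20 mural identity genes outside the rule had a UMI in the members. So did each of 10 neuronal and 6 leptomeningeal genes, so this count does not check the label. Of the contractile smooth muscle genes, *Tagln*, an actin-binding protein, was detected in 19 members and *Mylk*, myosin light chain kinase, in 54. At least 1 of 6 contractile genes (*Tagln*, *Myh11*, *Cnn1*, *Actg2*, *Lmod1* and *Mylk*) was found in 65 members and at least 2 in 13. At this depth a gene without a UMI may still be expressed, so these counts do not divide the members into pericytes and smooth muscle cells. The rule gene *Acta2* was detected in 21 members, of which 16 also held *Tagln*, against 3 of the 89 without it.

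A subset of members also carried neural genes. At least 3 of 9 neuronal genes or at least 3 of 7 astrocyte and radial glia genes were detected in 28 of 110 members, of which 9 came from the 58 control cells and 19 from the 52 *Eed-cKO* cells. These cells held a median of 7172 UMIs against 1482 in the other 82. *Vtn* was detected in 18 of the 28 (719.6 CPM in their sum) and in 79 of the 82 (4626 CPM). The 7 rule genes together made up 2548 CPM in the 28 and 12352 CPM in the 82. Of the 13 members under 1000 CPM of the rule genes, 12 were among the 28, 11 were from *Eed-cKO* embryos and 10 held a *Hox* UMI. Results are therefore given with and without the 28, a split made after seeing the values. Scrublet, which scores cells against simulated pairs, put 7 members (4 control and 3 *Eed-cKO*) in the highest 6% of scores. Of the members, 4 carried at least 4 of 6 leptomeningeal fibroblast genes, and 0 carried 3 or more of 6 microglial genes, which allows a share of up to 2.73%. Intervals and limits cover counting error only.

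**Figure D1:**
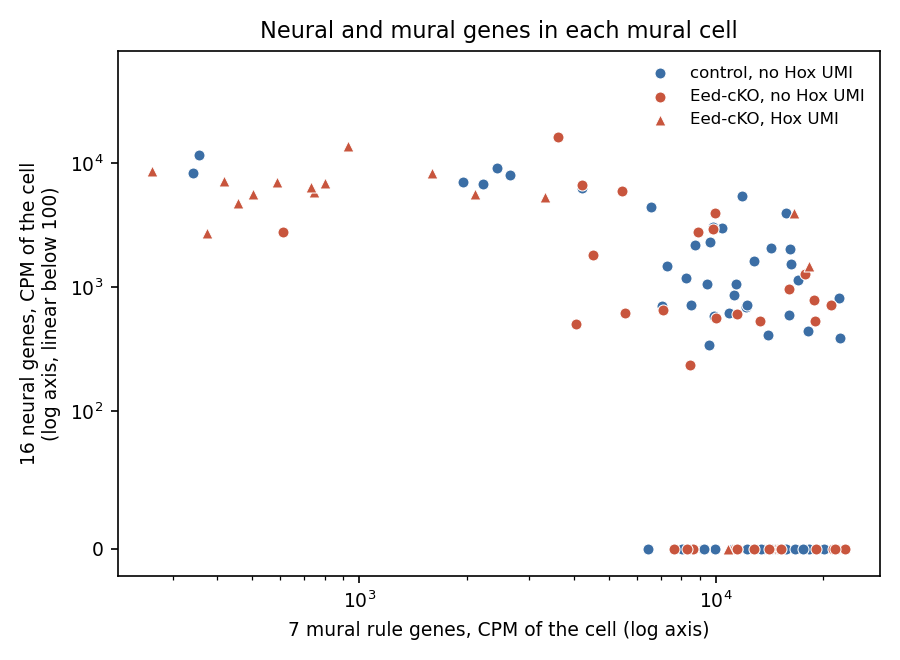
Each point is 1 of the 110 mural cells, with the CPM of its 7 mural rule genes on the x axis and of 16 neuronal and glial genes on the y axis; colours give the genotype, and cells with a *Hox* UMI are marked. Members low in mural genes, at the left, were high in neural genes, and 39 members held no neural UMI.

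The values just inside and just outside the rule differed. The 25 members with exactly 3 mural genes had a median of 5940 UMIs, and 17 were from *Eed-cKO* embryos. *Vtn* was detected in 16 of these 25, against 81 of the 85 members with more mural genes. Among the 125 cells with exactly 2 mural genes and fewer than 3 endothelial genes, 35 held *Vtn* and 102 met the neural criterion.

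Genes with the highest ratio of CPM in mural to endothelial cells, as means over embryos with at least 5 cells of the class, began with rule genes, and this contrast is a description because the rule used it. *Rgs5* stood at 1904 CPM in mural cells (± 1261 SD, n = 12 embryos) and was found in 95 of 110 mural, 1 of 249 endothelial and 39 of 13263 other cells. *Pdgfrb* stood at 1217 CPM in mural against 1.50 in endothelial cells. Among genes outside the rule, *Mmp9*, a matrix-degrading protease, was found in 44.5% of mural cells, at 932 CPM. *Cd248*, the surface protein endosialin of perivascular cells, stood at 1119 CPM in mural against 3.04 in endothelial cells. *Vtn* stood at 3049.7 CPM in mural against 8.74 in endothelial cells. *Cspg4* stood at 761 CPM in mural against 3.20 in endothelial cells, and *S1pr3*, a sphingosine-1-phosphate receptor, at 344 CPM in mural against 1.50 in endothelial cells. *Gucy1a3*, a subunit of the nitric oxide receptor guanylate cyclase, stood at 538 CPM in mural against 3.25 in endothelial cells. The rule genes *Kcnj8*, *Higd1b* and *Abcc9*, and *Mgp*, *Gper1*, *Atp13a5* and *Myl9*, completed the 15.

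Against other cells the leading genes outside the rule were *Tlr12*, *P2ry14*, *Foxs1*, *Tbxa2r*, *Vtn*, *Art3*, *Lamc3*, *Ndufa4l2*, *Cox4i2*, *Igfbp7* and *Atp13a5*. *P2ry14*, a receptor for UDP-sugars, was found in 30.9% of mural cells. *Tbxa2r*, the thromboxane receptor, stood at 227 CPM against 0.277 in other cells. *Foxs1*, a forkhead factor, stood at 235 CPM against 0.243. *Ndufa4l2* and *Cox4i2*, both related to subunits of respiratory complexes, stood at 282 CPM against 0.696 and at 106 CPM against 0.265. *Igfbp7*, which binds insulin-like growth factors, was found in 83.6% of mural cells, at 2406 CPM against 6.16.

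Basement membrane genes were shared with the endothelium. *Col4a1*, a chain of collagen IV, was detected in 107 of 110 mural cells, at 4245 CPM in mural against 2756 in endothelial cells and 44.3 in other cells. *Sparc*, a collagen-binding matrix protein, stood at 2547 CPM in mural against 5363 in endothelial cells. *Nid1*, the linker nidogen, stood at 1376 CPM in mural against 645 in endothelial cells, and *Bgn*, a small proteoglycan, at 915 CPM in mural against 212 in endothelial cells. The glucose transporter gene *Slc2a1*, typical of blood-brain barrier endothelium, went the other way, at 84.9 CPM in mural against 3652 in endothelial cells.

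**Figure D2:**
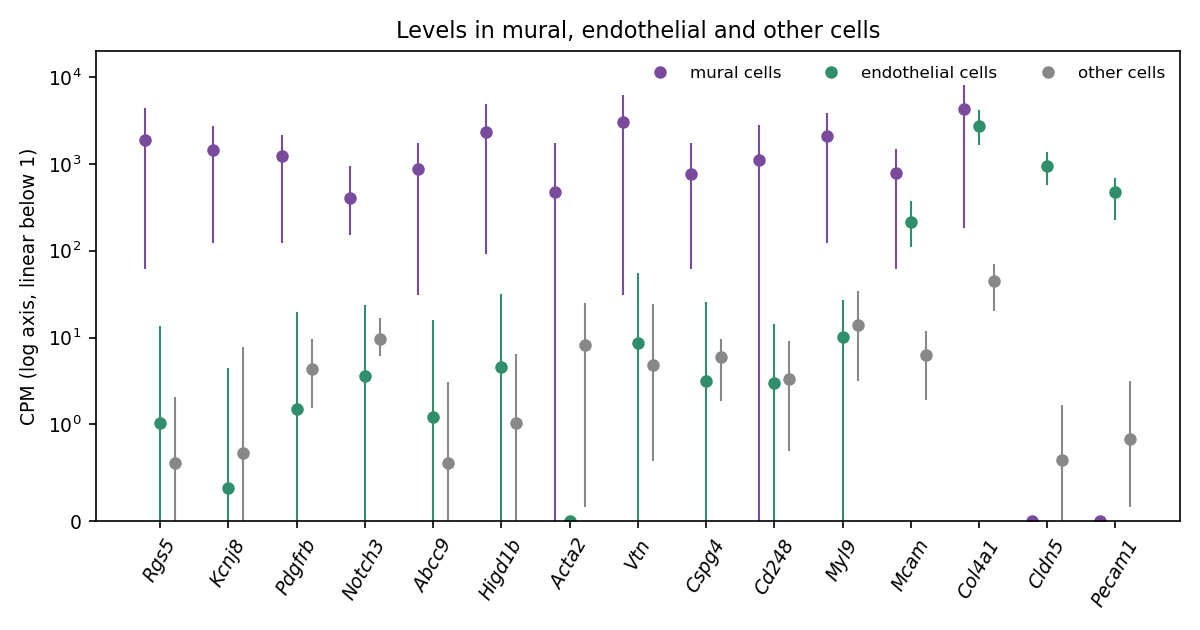
Points are mean CPM over embryos (log axis, linear near 0) in mural (12 embryos), endothelial (13 embryos) and other cells (15 embryos), and lines run from the lowest to the highest embryo. The mural genes lie above both other classes, and *Col4a1* is shared with endothelial cells.

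Mural cells were a small share of the captured cells in both genotypes. The share was 0.641%, 1.29%, 0.628%, 0.901%, 0.781% and 0.576% in control embryos 1 to 6 (mean 0.803 ± 0.267 SD, n = 6). In the *Eed-cKO* embryos it ran from 0.368% to 1.08% with a median of 0.810% (mean 0.732 ± 0.250 SD, n = 9). The groups overlapped, and the difference of -0.0705 percentage points did not pass an exact two-sided permutation test over embryos (p = 0.606, adjusted p = 0.654 over 5 tests). In relation to vessels, mural cells were 32.2 ± 12.2 SD percent of mural plus endothelial cells in 6 control embryos and 29.2 ± 5.42 SD percent in the 7 *Eed-cKO* embryos with at least 10 such cells (exact permutation p = 0.599, adjusted p = 0.654). When at least 4 mural genes were asked for, the share of all cells was 0.694 ± 0.184 SD percent in control and 0.483 ± 0.136 SD percent in *Eed-cKO* (exact permutation p = 0.0196, adjusted p = 0.0979). Without the 28 members with neural genes it was 0.698 ± 0.278 and 0.443 ± 0.224 SD percent (exact permutation p = 0.0723, adjusted p = 0.238). Without control embryo 2 the difference in the share of all cells was 0.0269 and that in the share of vascular cells 1.23 percentage points, both above 0.

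Contractile cells, with at least 2 of the 6 contractile genes, were 0% to 28.6% of mural cells in control (mean 10.3 ± 10.95 SD, n = 6) and 0% to 37.5% in *Eed-cKO* (mean 14.1 ± 16.3 SD, n = 6; exact permutation p = 0.654, adjusted p = 0.654). Without *Eed-cKO* embryo 7 the difference was -0.873 percentage points, and with at least 1 gene asked for the means were 59.2% in control and 55.0% in *Eed-cKO*. Cycling cells, with at least 2 of 12 cell cycle genes, were found in control embryos 3 (28.6%) and 4 (10%), and in *Eed-cKO* embryos at up to 55.6%, in embryo 5. The means were 6.43 ± 11.6 and 20.5 ± 18.9 SD percent (exact permutation p = 0.143, adjusted p = 0.357). The difference of 14.03 percentage points was 7.02 without *Eed-cKO* embryo 5. Without the members with neural genes the cycling means were 6.61 ± 11.6 SD percent in 6 control and 9.52 ± 8.25 SD percent in 3 *Eed-cKO* embryos (exact permutation p = 0.810, adjusted p = 0.810). The median UMIs per mural cell were 882 to 2891 in control and 1088 to 7308 in *Eed-cKO* embryos (exact permutation p = 0.123, adjusted p = 0.357). After the members with neural genes were left out, 3 *Eed-cKO* embryos kept at least 5 members, with medians of 1071 to 2359 UMIs against 874 to 2497 in control. Without these members the share of vascular cells was 29.4 ± 13.4 and 22.6 ± 5.33 SD percent (exact permutation p = 0.274, adjusted p = 0.456) and the contractile share 8.60 ± 7.57 and 14.3 ± 24.7 SD percent (exact permutation p = 0.690, adjusted p = 0.690). None of these 5 measures passed an adjusted p of 0.05 in the settings tried.

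**Figure D3:**
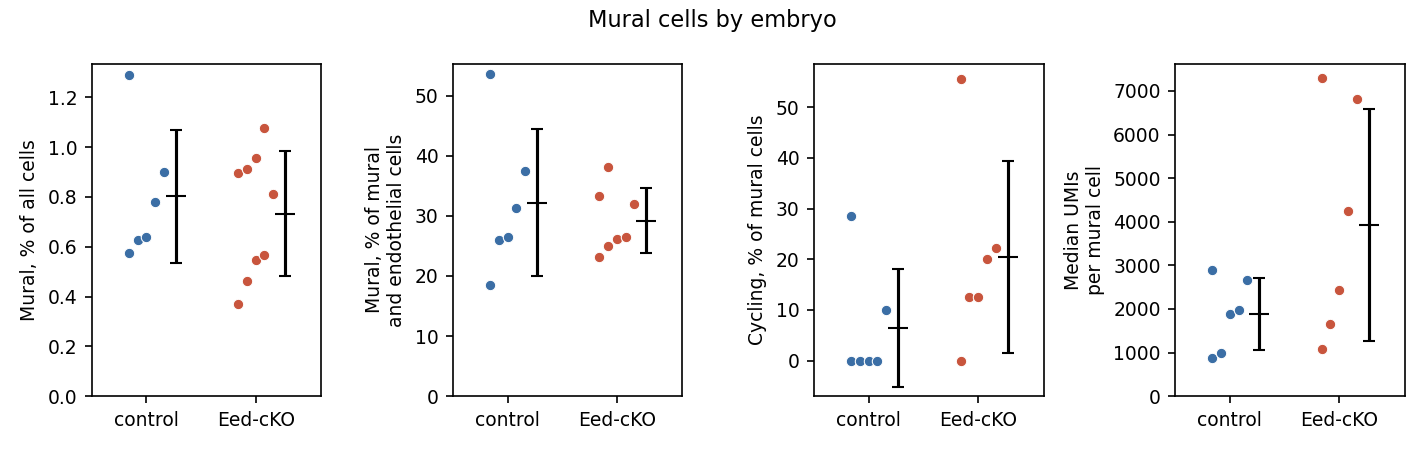
Each point is an embryo, and black marks give the mean and SD. The panels show mural cells as a share of all cells, as a share of mural plus endothelial cells, cycling cells as a share of mural cells, and the median UMIs of a mural cell, and the genotypes overlap in every panel.

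*Eed* itself was too weak in mural cells for a test, with 5 UMIs in control and 8 in *Eed-cKO* members. In other cells *Eed* was lower in *Eed-cKO*, by -0.47 ± 0.09 (SE) on the log2 scale (edgeR's quasi-likelihood test, adjusted p = 0.000276). UMIs were counted at transcript ends, so this value does not check the deletion. Of 6 PRC2 genes tested in mural cells, 0 passed the test between genotypes, but since 0.189% of all genes passed it, this count tells nothing particular to them.

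*Hox* genes pattern the posterior body and are classic targets of Polycomb silencing. Of 34 *Hox* genes in the table, 23 had a UMI in *Eed-cKO* mural cells, 51 UMIs in all in 16 of 52 cells, against 0 UMIs in the 58 control cells. That is 212 CPM (95% exact Poisson interval 158 to 279), and in control the count of 0 allows up to 21.9 CPM. In the other cells of *Eed-cKO* the level was 487 CPM, with 392 to 566 over the 9 embryos, and 32 of 32 *Hox* genes tested rose there (edgeR), where 25.4% of all genes passed in either direction. In endothelial cells it was 84.0 CPM (64.6 to 107) in *Eed-cKO*, with a *Hox* UMI in 17 of 117 cells, and 0 UMIs in control. Median depths were 2432 UMIs in mural and 5220 in endothelial cells of *Eed-cKO*. The mural level ran from 0 CPM in embryo 2, with 1 mural cell, to 462 in embryo 9, and was below that of the other cells of the same embryo in 9 of 9. Embryos 3 and 8 held 3 mural cells and 1 *Hox* UMI each. Of the 51 UMIs, 50 lay in the 19 *Eed-cKO* members with neural genes (309 CPM, 229 to 407). The 33 members without them held 1 UMI, of *Hoxd9* (12.7 CPM, 0.322 to 70.9). *Hoxb13* had 6, *Hoxc13* 6 and *Hoxd13* 5 UMIs, all in members with neural genes. No *Hox* gene had the counts for a test in mural cells alone. In the edgeR test of the difference between mural and other cells, given below, 0 of 32 *Hox* genes tested were called, where 0.395% of all genes were. Their median difference was -1.90 on the log2 scale against 0.27 over all genes.

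Within mural cells, 11 of 5827 genes tested differed between genotypes (edgeR's quasi-likelihood test, 6 control and 6 *Eed-cKO* embryos with at least 5 mural cells, adjusted p under 0.05), all of them higher in *Eed-cKO*. They are 0.189% of the genes tested, and 432 genes had an unadjusted p under 0.05. They were *Igfbp5* and *Igfbp2*, which bind insulin-like growth factors, *Slc1a3*, *Gja1* and *Sox9* (a glutamate transporter, connexin 43 and a transcription factor of glia), the cell cycle gene *Ccnd1*, the elastin gene *Eln*, and *Asb4*, *Crym*, *Ezr* and *Nr4a3*. On the CPM scale of the fit, which includes TMM factors, *Igfbp5* was at 0, 0, 0, 43.9, 102 and 0 in control embryos 1 to 6. It was at 218, 979, 997, 46.2, 461 and 913 in *Eed-cKO* embryos 1, 4, 5, 6, 7 and 9, a log2 difference of 3.87 ± 0.67 (SE; edgeR adjusted p = 0.00179). On the same scale *Slc1a3* was at 0 to 89.3 in control and 76.8 to 957 in *Eed-cKO* embryos (log2 difference 3.39 ± 0.68, edgeR adjusted p = 0.00964). *Crym*, *Eln*, *Ezr* and *Gja1* had 0 UMIs in control members, so no fold is given for them.

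The counts of these genes lay mainly in members with neural genes. These 28 members also held 220967 of the 377466 UMIs of all members, so a large part of any gene's count falls there. *Slc1a3*, *Sox9* and *Gja1* are among the genes that told these members, so their place follows in part from that choice. Of the *Igfbp5* UMIs, 124 of 136 were in the 28 members, as were 94 of 105 for *Slc1a3*, 59 of 62 for *Sox9*, 75 of 86 for *Ccnd1*, 37 of 49 for *Gja1* and 46 of 48 for *Eln*. For *Ezr*, *Crym* and *Nr4a3* all UMIs were in those members. Without the 28, 0 of the 11 were called, whether at least 5 or at least 3 mural cells per embryo were asked for. A gene needed at least 15 UMIs to be tested. Each gene just listed had fewer outside the 28, so it was not tested there and its missing call tells nothing. At 3 cells, 4 other genes were higher in *Eed-cKO* by the edgeR test, and they were found after the values were seen. They were *Mgp*, a matrix inhibitor of calcification (log2 difference 2.45 ± 0.42), the chemokine *Cxcl12* (1 UMI in control members), the fibrillar collagen *Col3a1* (2.01 ± 0.45) and the immediate early factor *Nr4a1* (1.83 ± 0.45). *Cxcl12* rested largely on *Eed-cKO* embryo 6, at 1616 CPM with TMM factors over all members against 0 to 154 in the other *Eed-cKO* embryos. On that scale, over all members, the genotypes overlapped for *Mgp*. It was at 102 to 2173 in control and 0 to 1689 in *Eed-cKO* embryos, with 0 UMIs in *Eed-cKO* embryos 4 and 6. In the members without neural genes, the 6 leptomeningeal genes, of which *Col3a1* is 1, summed to 924 CPM in control (248 to 1993 over 6 embryos, 2 of the 6 with a UMI). In *Eed-cKO* they summed to 2709 CPM (1113 to 8025 over 6 embryos, 6 with a UMI), and without *Col3a1* the sums were 668 and 1577 CPM. Their part in these calls was not tested. DESeq2, limma-voom with TREAT and edgeR on members with at least 4 mural genes each called 0 genes, with 251, 409 and 90 at an unadjusted p under 0.05. Leaving out 1 embryo gave 2, 20, 36 and 24 calls without *Eed-cKO* embryos 5, 6, 7 and 9, and 2, 1, 5, 76 and 3 without control embryos 1, 2, 3, 5 and 6.

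The genes of mural identity were then compared between genotypes within mural cells. Of the 19 tested outside the rule, 0 passed, where 0.189% of all genes did, so that 0 calls are near the background for a list of any kind here. The median log2 difference of the list was -0.64 against 0.19 over all genes tested. In mural cells *Vtn* stood at 4688, 5205, 3566, 2929.5, 1322 and 6176 CPM in control embryos 1 to 6. In *Eed-cKO* embryos 1, 4, 5, 6, 7 and 9 it stood at 4005, 1627, 819, 2389.7, 3839 and 30.8 CPM. The lowest embryo of each genotype, control 5 and *Eed-cKO* 9, had 6 of 13 and 5 of 5 members with neural genes. The log2 difference of -0.74 ± 0.43 had an adjusted p of 0.785 in edgeR. In the sums over members without neural genes, *Vtn* stood at 4866 CPM in control and 4388 in *Eed-cKO*. Of 8 contractile genes tested 0 passed, with *Myl9* at -0.94 ± 0.43. The astrocyte and radial glia list had 3 of 6 tested genes higher (*Slc1a3*, *Sox9* and *Gja1*), and these are among the genes used to tell members with neural genes. Of 10 cell cycle genes tested 0 passed, with a median of 1.90. Of 22 basement membrane and matrix genes tested 1 passed, *Eln*, and the median was -0.48. Of 13 vascular signalling genes tested 0 passed, with the Notch target *Heyl* at -0.35 ± 0.52. Of 15 dissociation response genes 0 passed, with a median of 0.15. In the lists of transport genes (7 tested), cyclin-dependent kinase inhibitors (4), patterning factors (6), leptomeningeal (3) and neuronal genes (10), 0 genes passed.

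The genotype effect in mural cells was then set against that in other cells of the same embryos. In the other cells, 25.4% of 15802 genes passed the test between genotypes. For 62 of 15689 genes, or 0.395%, the effect itself differed between mural and other cells (edgeR's quasi-likelihood test of the interaction, with the embryo as a term, adjusted p under 0.05). Of these, 2 were the rule genes *Acta2* and *Kcnj8*, and the other 60 are described here. In 53 of them the change was lower in mural cells. Of the 53, 51 were higher in the other cells of *Eed-cKO* by their own test. Of the 48 tested within mural cells, 0 passed there, and 46 were below 0. Their median change was -1.06 on the log2 scale in mural cells, and that of the 53 was 2.06 in other cells, against 0.19 and -0.01 over all genes tested in each class. The 53 were picked for a lower change in mural than in other cells, so these signs and medians follow in part from that choice. Of all genes called with a lower change, rule genes included, at least 53 had a higher mean CPM in control mural than in control other cells.

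*Igf2*, the imprinted fetal growth factor, had the smallest p. In mural cells it stood at 19691, 17498, 15522, 12289.7, 3539 and 21615 CPM in control embryos 1 to 6. In *Eed-cKO* embryos 1, 4, 5, 6, 7 and 9 it stood at 8455, 6315, 2396, 8004, 11366 and 832 CPM. In other cells it stood at 1.50 to 18.8 CPM in controls and 30.0 to 382 in *Eed-cKO*, with no overlap. The change was -1.08 ± 0.36 in mural cells (edgeR adjusted p = 0.280) and 3.46 ± 0.57 in other cells, and the difference between them in the joint edgeR fit was -4.29 ± 0.44 (adjusted p = 1.79e-18). In the sums over members without neural genes, *Igf2* stood at 17449 CPM in control and 11601 in *Eed-cKO*.

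Transcription factors were among the 53. *Foxc1*, a forkhead factor of the neural crest and of brain pericytes, stood at 38.9 to 618 CPM in control and 92.4 to 356 in *Eed-cKO* mural cells. In other cells it was at 0 to 2.17 CPM in controls and 2.88 to 10.6 in *Eed-cKO*, and the effects differed by -3.68 ± 0.64 (edgeR adjusted p = 1.32e-05). *Foxd1*, another forkhead factor, stood at 105 to 402 and 45.5 to 175 CPM in mural cells and at 0.616 to 3.10 and 8.01 to 19.5 in other cells (difference -3.74 ± 0.62). The Notch targets *Heyl* and *Hes1* differed by -3.49 ± 0.63 and -2.06 ± 0.55, and the T-box factor *Tbx2* by -2.92 ± 0.69.

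Some matrix and contractile genes were also among the 53. *Vtn* was at 0.621 to 2.37 CPM in other cells of controls and 2.38 to 24.1 in those of *Eed-cKO*, and the effects differed by -2.86 ± 0.52. *Col4a1* (-2.23 ± 0.45), *Col4a2* (-1.79 ± 0.47), *Sparc* (-1.74 ± 0.45) and *Bgn* (-2.56 ± 0.56) were the 4 called of 24 basement membrane and matrix genes, whose median was -1.24 against 0.27 over all genes. Of 20 mural identity genes outside the rule, 5 were called, *Vtn*, *Mcam*, *Tbx2*, *S1pr3* and *Cox4i2*, with a median of -1.16. Of 12 contractile genes *Myl9* was called (-3.01 ± 0.49). *Ifitm3*, an interferon-induced membrane protein, was at 0.931 to 3.96 and 8.01 to 34.4 CPM in other cells and differed by -4.37 ± 0.53. The small heat shock proteins *Cryab* and *Hspb1* differed by -4.89 ± 0.67 and -4.08 ± 0.68, and the matricellular gene *Ctgf* by -4.48 ± 0.68. *Syt12*, *Dsp*, *Adm* and *Epha2* had the most negative fitted differences on few mural UMIs, 7, 8, 16 and 11, so no size is given. The 7 genes with a higher effect in mural cells were *Npy*, *Gja1*, *Pogz*, *Pdgfra*, *Khdrbs3*, *Igfbp5* and *Nnat*. With stricter other cells and without the members with neural genes, 0 genes passed in this direction. *Igfbp5* was at 3.31 ± 0.75 and there at 2.86 ± 1.33, and *Nnat* at 1.76 ± 0.43 and there at -0.38 ± 0.43. *Npy*, *Gja1*, *Pogz* and *Pdgfra* had 0 and *Khdrbs3* 1 UMIs in control members, so no size is given.

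**Figure D4:**
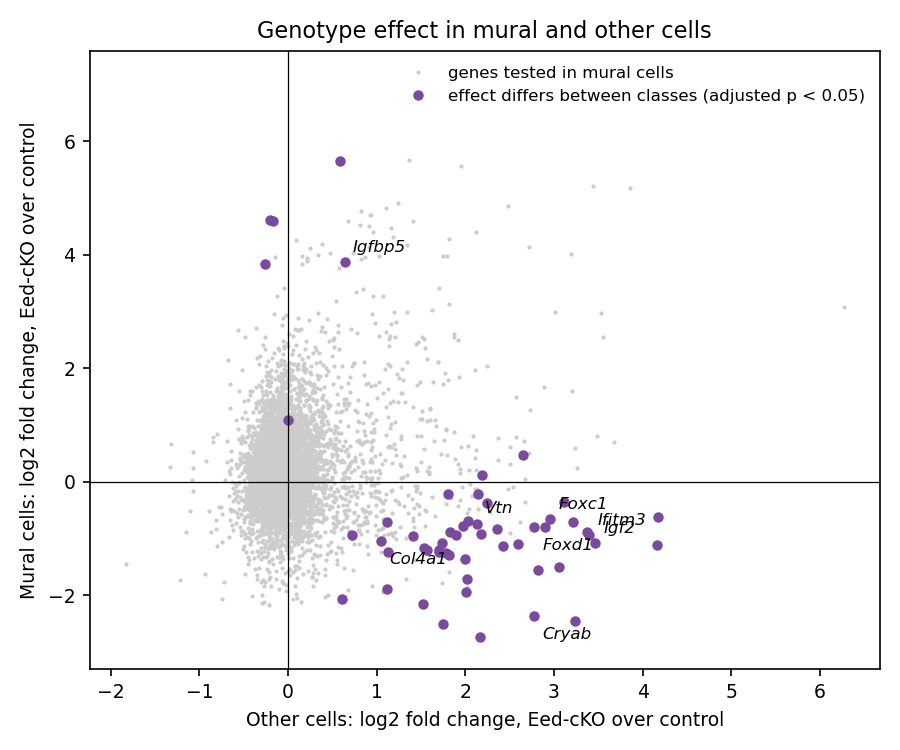
Each point is a gene tested in mural cells, with its log2 fold change (Eed-cKO over control) in other cells on the x axis and in mural cells on the y axis; purple points are genes outside the rule whose effect differed between the classes at an adjusted p under 0.05. Most of these lie to the lower right, above 0 in other cells and below 0 in mural cells. They were chosen by that difference, so their place away from equal effects follows in part from the choice.

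The composition of both classes was examined beside this result. The leptomeningeal rule took 83 control and 315 *Eed-cKO* cells, and the 6 leptomeningeal genes summed to 9.88 and 63.0 CPM in the other cells of control and *Eed-cKO*. The 7 mural rule genes summed to 13.1 and 32.2 CPM there. With 12917 stricter other cells, which held at most 1 gene of each vascular, leptomeningeal and microglial list, 50 genes were called, 43 of them lower, and 50 were among the 62, rule genes included. With members with neural genes also left out and at least 3 mural cells asked for, 43 genes were called, all lower, of which 30 were among the 62. In these were *Igf2* (-4.64 ± 0.35), *Vtn* (-2.36 ± 0.46), *Foxc1* (-3.94 ± 0.69), *Foxd1* (-3.52 ± 0.65), *Ifitm3* (-3.82 ± 0.49), *Col4a1* (-1.43 ± 0.34) and *Myl9* (-1.95 ± 0.39). Past the threshold no longer, but still below 0, were among others *Heyl* (-2.27 ± 0.69), *Tbx2* (-2.48 ± 0.72), *S1pr3* (-1.71 ± 0.50), *Cox4i2* (-3.87 ± 1.07), *Col4a2* (-1.06 ± 0.36) and *Bgn* (-1.56 ± 0.53). Without control embryo 5 the count was 189, 83 of them higher, without control embryos 1 and 2 it was 41 and 38, and without *Eed-cKO* embryos 5 and 9 it was 40 and 32.

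**Figure D5:**
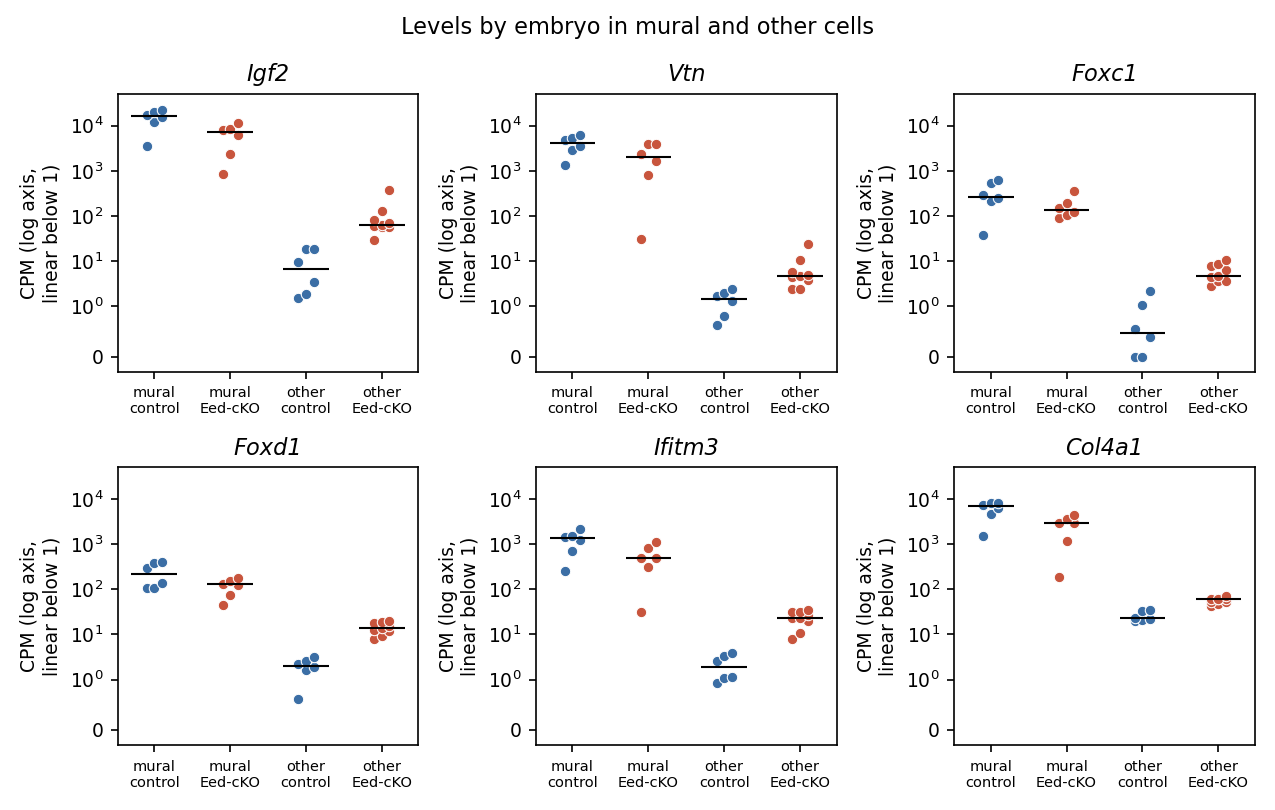
Each point is the CPM of an embryo (log axis) in mural cells (6 control and 6 Eed-cKO embryos) or other cells (6 and 9), and lines are medians. In all 6 genes the other cells of Eed-cKO lie above those of control without overlap, while the mural cells of the genotypes overlap.

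Against endothelial cells, their neighbours on the vessel, the effect differed for 9 of 10483 genes, or 0.0859%, in 6 control and 5 *Eed-cKO* embryos (edgeR interaction test). The cell cycle genes *Top2a* (4.34 ± 0.80), *Ube2c* (4.06 ± 0.84), *Ccna2* and *Kif23*, together with *Ccnd1* (4.18 ± 0.70), *Cxcl12*, *Sox9* and *Gja1*, had the higher effect in mural cells. No size is given for *Ccna2*, *Kif23*, *Cxcl12*, *Sox9* and *Gja1*, which had 3, 0, 1, 1 and 0 UMIs in control mural cells. *Igf2* had the lower one (-3.13 ± 0.40): its change was -1.08 ± 0.36 in mural and 3.31 ± 0.68 in endothelial cells. The 6 leptomeningeal genes summed to 15.1 CPM in the endothelial cells of control (0 to 55.7 over 6 embryos) and to 304 CPM in those of *Eed-cKO* (0 to 1021 over 7), and their part in this difference was not tested. Of 12 cell cycle genes 3 were called, and the median of the list was 4.08 against 0.23 over all genes. In endothelial cells alone the 12 had a median change of -1.54, with 0 above 0 and 1 called lower (edgeR). They summed to 742 CPM in control and 296 CPM in *Eed-cKO* endothelial cells. In mural cells alone the median was 1.90 over 10 tested, with 0 called. The 4.08 holds a lower level in endothelial cells as well as a higher one in mural cells. With each embryo left out in turn, only *Ccnd1* and *Igf2* of the 9 genes stayed past the threshold throughout. Without members with neural genes and with at least 3 cells, 3 genes passed: *Igf2* (-3.45 ± 0.39), *Cxcl12* and the immediate early gene *Egr1* (-2.60 ± 0.55). Leaving out *Eed-cKO* embryos 5 and 6 gave 5 and 36 calls, and leaving out control embryos 3 and 5 gave 14 and 15.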

How the data were processed

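Single cells from E18.5 hypothalamus were sequenced at the 3' end on the ddSEQ platform. The authors deposited a table of UMI counts for each cell. The submitters' processing notes name STAR 2.5.2b, SAMtools 1.3 and the mm10 build, and these counts were used as given. The libraries of an embryo were summed. Mural, endothelial, leptomeningeal and microglial cells were told by detected marker genes, and no doublets were removed in the main results. UMIs of mural cells were summed per embryo (at least 5 cells) and tested with edgeR 4.0.16 (quasi-likelihood, TMM, Benjamini-Hochberg) in R 4.3.3, for genes with at least 15 UMIs over the embryos and 2 in 1 embryo. The difference of genotype effects between classes was tested as an interaction with the embryo as a term. Shares were compared with exact two-sided permutation tests in scipy 1.17.1, adjusted over 5 tests. DESeq2 1.42.0, limma 3.58.1, other filters, scalings and rules, and leaving out each embryo were alternatives. The members and lists were chosen with earlier results of these data known.

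Apart from a gene that is not reported here, those named were the rule genes, up to 5 of each list by level and every list member past the threshold, the 5 largest rises and falls of each edgeR result, the 15 leading genes over each other class, *Eed* and the *Hox* genes with a UMI. Genes named outside this rule were chosen after their values were seen. On simulated counts with 200 changed genes, 54% were recovered within mural cells (5300 genes), 35.5% against other cells (15679 genes) and 31% against endothelial cells (10450 genes). The median log2 changes in these simulations were 1.96 to 2.19 for rises and -1.999 to -1.73 for falls. The changed genes were drawn only from genes with at least 50 UMIs in mural cells, a filter that 1539 genes passed against 5827 tested within mural cells. The rates hold for simulated counts with changes of that size in such genes, so they do not give the recovery in the real tests. The recovery of smaller changes and of weaker genes was not tested.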

Additional observations from a re-analysis of the deposited data

Results flagged for a closer look

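In 46 groups of embryos examined for a sample far from the others, 7 values stood apart, where chance gives about 1 in 20. The share of cycling mural cells in control embryo 3 was 28.6%. On the CPM scale with TMM factors, *Asb4* was at 51.1 and *Nr4a3* at 25.6 in control embryo 5. *Ezr* was at 757 and *Sox9* at 877 in *Eed-cKO* embryo 5, and *Sox9* was at 43.9 in control embryo 4. *Notch3* was at 691 in *Eed-cKO* embryo 7. By the interaction test in edgeR, the genotype effect differed from that of other cells for 62 genes and from that of endothelial cells for 9 genes.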

How the results depend on the processing

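The difference in the share of all cells (*Eed-cKO* minus control, percentage points) turned to 0.563 with at least 2 mural genes and 0.00330 with litters as samples, and ran from -0.116 to 0.0269 when 1 embryo was left out. The share of vascular cells turned to 9.99 with at least 2 mural genes, 1.56 and 0.356 when cells were thinned to 1000 and 2000 UMIs, and 0.152 with litters, and ran from -5.80 to 1.23 without 1 embryo. The contractile share turned to -4.23 with at least 1 gene and ran from -0.873 to 7.45. Genes called within mural cells numbered 28 with no gene filter, 0 with a filter of 50 UMIs, 21 with a minimum of 1 cell, 17 without the highest Scrublet scores, 0 in DESeq2, 0 in limma-voom with TREAT, 25 with sex as a covariate, 0 with at least 4 mural genes, 22 with litters, 76 without the largest library, and 1 to 76 without 1 embryo. Without members with neural genes, chosen after seeing the data, they numbered 2, or 4 with a minimum of 3 cells. Genes whose effect differed from other cells numbered 117 with library size, 102 with RLE factors, 95 and 119 with a minimum of 3 and 1 cells, 20 without members with neural genes, 189 without the largest library, and 32 to 189 without 1 embryo. Against endothelial cells they numbered 20 with a filter of 50 UMIs, 24 without the highest Scrublet scores, 2 and 3 without members with neural genes, 15 without the largest library, and 5 to 36 without 1 embryo. Without the largest library, control embryo 5 fell below the minimum of 5 mural cells and left these fits. The counts of 76, 189 and 15 genes are therefore the same fits as those without that embryo. The cause of the changes across settings was not tested. Of the single genes called by a main test, *Nnat* turned direction, with an effect against other cells of -0.17 without members with neural genes, -0.26 with a minimum of 3 cells as well and -0.38 with stricter other cells too. Of the other values over these genes and the alternatives run, 1499 stayed past the threshold and 447 lost the call. Contractile and cycling shares could not be computed at 2000 UMIs, since no *Eed-cKO* embryo kept 5 members. With 110 members, weak genes could not be tested.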
